A study of Mus musculus with 2 samples.

Results

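The cells described here are macrophages of mouse hind limb muscle taken after peroneal nerve injury. They carry MHC class II transcripts at a high level together with transcripts of *Tnip3*, *Clec4b1*, *Arl5c* and *Tnfsf9*. They were selected on measured values. A barcode was taken when it had more than 200 genes, under 10% mitochondrial UMIs, a UMI of *Csf1r* or *Adgre1*, at least 5 UMIs of *H2-Ab1* and a UMI of at least 2 of the 4 defining genes. It also had to lack any UMI of the dendritic cell genes *Cd209a*, *Xcr1*, *Ccr7* and *Siglech* and to have fewer than 3 of the 7 genes *Gpr34*, *Fcrls*, *Bank1*, *Cd33*, *St3gal6*, *Il10* and *Cx3cr1*. The rule was met by 4565 of 48848 barcodes, 1660 in the IgG library and 2905 in the SPP1-nAb library, and these are called *Tnip3*-set cells below.

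The study asked what secreted SPP1 (osteopontin) does in muscle whose motor nerve has been injured. Male mice of 10 to 16 weeks, C57BL/6J by the labels and carrying the *S100GFP* reporter of Schwann cells in the study's methods, received bilateral peroneal nerve injury and then 10 µL of SPP1-neutralizing antibody (2 µg, AF808) or of goat anti-mouse IgG (2 µg) into the tibialis anterior, repeated every 2 days, and muscle was taken at 7 dpi. The labels name both tibialis anterior and gastrocnemius as harvested, give live GFP-positive and GFP-negative cells as sorted while the sample titles name the GFP-positive cells only, and do not say how many animals were pooled. Each group is 1 library, so a difference between SPP1-nAb and IgG has no replicate check, no p-value is given, and the 95% intervals below cover counting error only. The IgG library held 23779 barcodes and 97607674 UMIs and the SPP1-nAb library 25069 barcodes and 127719916 UMIs, with 163 barcodes present in both, among them 13 of the *Tnip3*-set cells of either library.

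MHC class II molecules, built from paired chains such as those of *H2-Aa* and *H2-Ab1* and guided through the cell by the invariant chain CD74, present peptides to CD4 T cells. In muscle they are carried by dendritic cells and by a part of the macrophages, many of them derived from CCR2-positive monocytes that enter after injury. *Tnip3* encodes a partner of the ubiquitin editor A20 that restrains NF-kB signaling, *Clec4b1* a C-type lectin of the myeloid lectin cluster, *Arl5c* an ARF-like small GTPase, and *Tnfsf9* the costimulatory ligand 4-1BBL. In GRCm39 *H2-Ab1* lies at chr17:34476663-34488393, plus strand, *Tnip3* at chr6:65502295-65611024, plus strand, *Clec4b1* at chr6:123026921-123048514, plus strand, *Arl5c* at chr11:97880400-97887038, minus strand, and *Tnfsf9* at chr17:57412298-57414769, plus strand, and a UMI was counted for the whole gene.

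RefSeq promoter windows of GRCm38.p6, from 250 bases before to 50 bases after the start of the gene, were found for 4 of 7 genes looked up, namely *H2-Aa*, *H2-Eb1*, *Tnip3* and *Clec4b1*. *H2-Ab1*, *Arl5c* and *Tnfsf9* had no entry. The windows are shown because the class II chains were high together in these cells and the other genes define the cells. Capitals mark matches, on either strand, to the Y box letters CTGATTGG, present in 4.10% of 32851 windows of this length, or to the kappa B letters GGGAA, any 3 bases and CC, present in 5.78%. The 2 patterns share no position here.
H2-Aa (chr17:34287774-34288073, minus strand): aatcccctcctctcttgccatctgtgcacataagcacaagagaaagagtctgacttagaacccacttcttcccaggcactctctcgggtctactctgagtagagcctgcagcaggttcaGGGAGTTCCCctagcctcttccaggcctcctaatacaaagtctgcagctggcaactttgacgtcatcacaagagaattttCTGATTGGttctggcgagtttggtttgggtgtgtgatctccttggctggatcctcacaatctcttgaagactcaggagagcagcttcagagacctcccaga
H2-Eb1 (chr17:34305617-34305916, plus strand): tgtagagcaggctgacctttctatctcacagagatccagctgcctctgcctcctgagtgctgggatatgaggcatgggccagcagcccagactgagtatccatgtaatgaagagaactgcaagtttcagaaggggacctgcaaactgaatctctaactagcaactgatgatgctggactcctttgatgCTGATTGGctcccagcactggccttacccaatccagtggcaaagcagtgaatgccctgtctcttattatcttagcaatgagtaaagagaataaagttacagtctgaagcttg
Tnip3 (chr6:65590148-65590447, plus strand): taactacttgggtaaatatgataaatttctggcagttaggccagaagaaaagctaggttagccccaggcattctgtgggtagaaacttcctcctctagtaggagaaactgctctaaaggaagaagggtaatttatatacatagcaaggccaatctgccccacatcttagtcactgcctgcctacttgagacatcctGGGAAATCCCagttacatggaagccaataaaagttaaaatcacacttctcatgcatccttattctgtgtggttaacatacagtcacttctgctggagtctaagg
Clec4b1 (chr6:123049712-123050011, plus strand): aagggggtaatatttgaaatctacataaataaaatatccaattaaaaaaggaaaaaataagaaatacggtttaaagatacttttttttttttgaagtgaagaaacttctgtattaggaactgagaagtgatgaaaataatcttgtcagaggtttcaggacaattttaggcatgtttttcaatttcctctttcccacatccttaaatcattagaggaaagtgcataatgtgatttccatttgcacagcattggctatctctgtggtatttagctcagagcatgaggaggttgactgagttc

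The Y box letters began 51 bases before the start of *H2-Aa* and 62 bases before that of *H2-Eb1*. The kappa B letters began 54 bases before the start of *Tnip3* and, on the opposite strand, 131 bases before that of *H2-Aa*. The starts used here are RefSeq's in GRCm38.p6, whereas the gene spans given above are from the GENCODE annotation in GRCm39. Positions of the windows and of the spans therefore cannot be read against each other. The *Clec4b1* window held neither set of letters. These are matches of letters, and binding was not measured.

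The label was first compared with the markers. Levels are CPM, the UMIs of a gene per 1000000 UMIs summed over a set of cells, with exact Poisson intervals. The *Tnip3*-set cells held the macrophage genes *C1qa*, a complement subunit, at 1202 CPM (IgG) and 1251 CPM (SPP1-nAb) and *Lyz2*, lysozyme, at 6679 CPM (IgG) and 6532 CPM (SPP1-nAb). Genes of conventional dendritic cells were compared next. *Zbtb46* stood at 3.50 CPM (IgG) and 3.36 CPM (SPP1-nAb), against 35.0 and 37.6 CPM in 676 and 551 *Cd209a* cells. These served as the dendritic cell comparison and were kept barcodes with at least 2 UMIs of *Cd209a*, at least 5 of *H2-Ab1* and none of *Xcr1*, *Ccr7* or *Siglech*, with no demand on *Csf1r* or *Adgre1*. The growth factor receptor gene *Flt3* stood at 4.75 CPM (IgG) and 1.89 CPM (SPP1-nAb), against 53.2 and 45.5 CPM there. *Klrd1* was at 9.15 CPM (IgG) and 4.52 CPM (SPP1-nAb), against 400.0 and 297 CPM. *Zbtb46*, *Flt3* and *Klrd1* were thus lower than in the *Cd209a* cells in both libraries. In the dendritic cell list, 8 of 12 measured genes were at least 2-fold lower than in those cells in both libraries. 1 gene was higher, and of all genes 3.02% were lower and 4.43% higher. *Cd209a* was a gene of the rule for both sets, so that this difference is tied to the selection. Against phagocytes that met the rest of the rule, 8 of 12 measured genes were instead higher by any size, as given below.

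The defining genes were not higher than in the *Cd209a* cells, with 1 exception. *Tnip3* stood at 798 CPM (IgG) and 599 CPM (SPP1-nAb) in the *Tnip3*-set cells and at 1130 CPM (IgG) and 1039 CPM (SPP1-nAb) in the *Cd209a* cells. *Clec4b1* was at 228 and 181 CPM against 274 and 195 CPM, and *Tnfsf9* at 319 and 232 CPM against 518 and 314 CPM. *Arl5c* alone of the 4 was higher in the *Tnip3*-set cells, at 151 and 153 CPM against 82.9 and 78.9 CPM. *H2-Ab1* was at 3621 and 3348 CPM, and at 6089 and 5402 CPM in the *Cd209a* cells, for which UMIs of it were required as well. The rule used all 5 genes, so that their levels are tied to the selection.

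**Figure D1:**
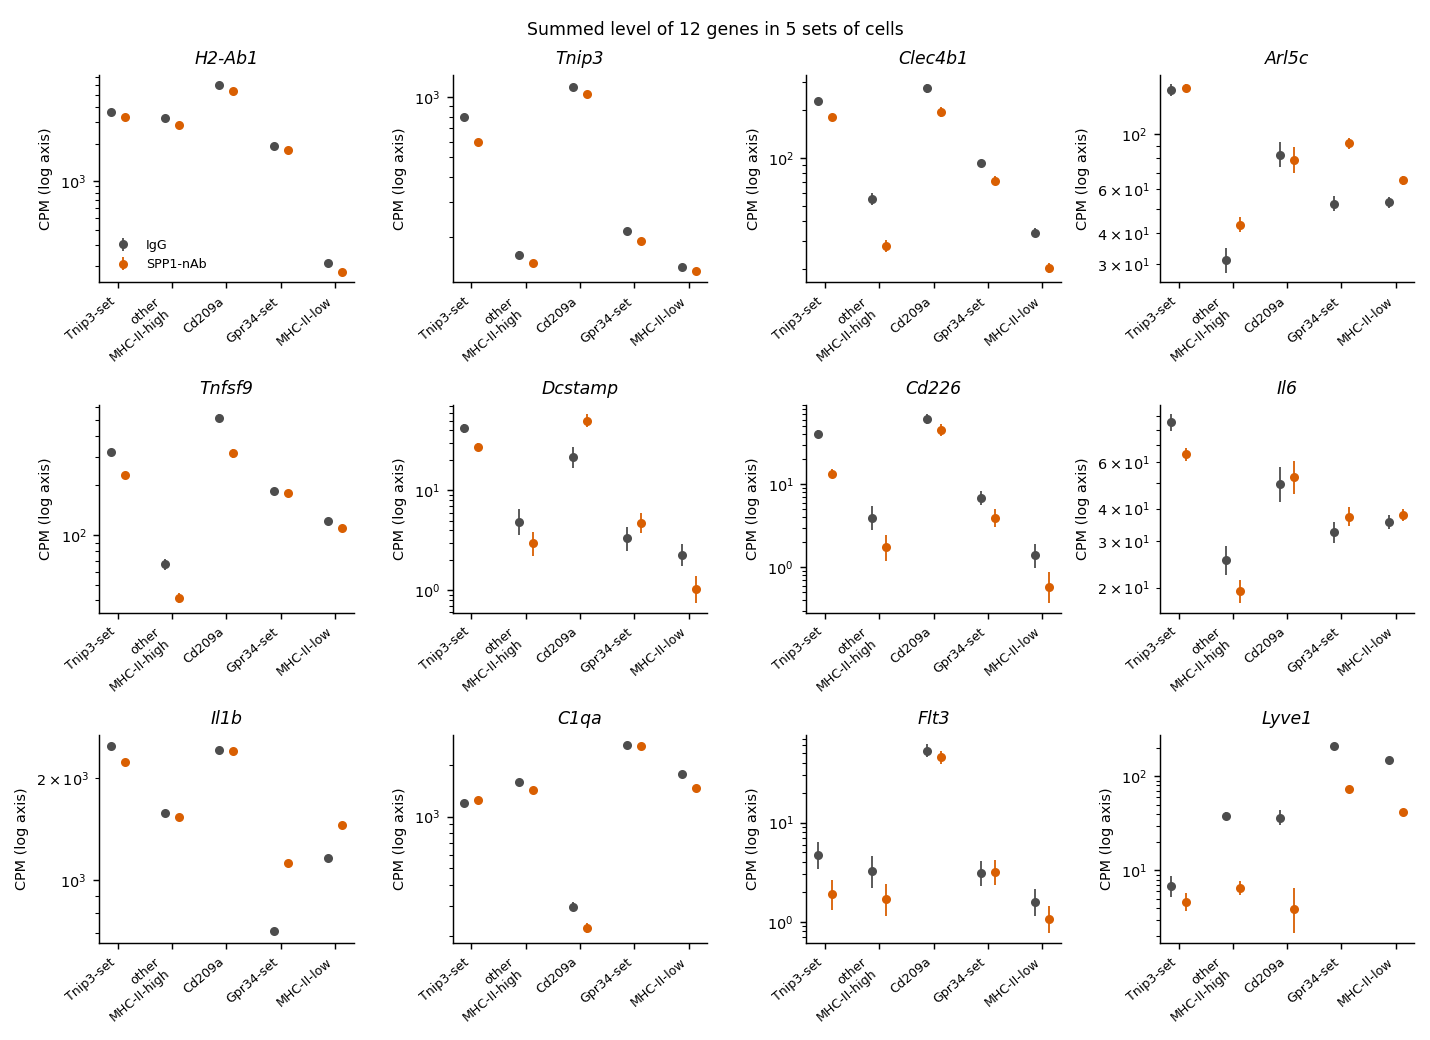
Summed level (CPM, log axis) of 12 genes in *Tnip3*-set cells and 4 comparison sets, with points for the IgG (gray) and SPP1-nAb (orange) libraries and 95% Poisson intervals for counting error. *Flt3* is at 4.75 and 1.89 CPM in *Tnip3*-set cells and at 53.2 and 45.5 CPM in *Cd209a* cells, whereas *C1qa* is at 1202 and 1251 CPM and 298 and 223 CPM.

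Within the *Tnip3*-set cells *H2-Ab1* had a median of 17 UMIs per cell in IgG and 19 in SPP1-nAb, with a highest value of 78 and 106. *Tnip3* was the most frequent defining gene, with a UMI in 81.2% and 81.6% of the cells and up to 46 and 70 UMIs in a cell. *Clec4b1* was found in 57.7% and 54.5%, *Tnfsf9* in 60.1% and 54.8%, and *Arl5c* in 47.5% and 55.2%. The cells were thus a mixture of combinations. The most frequent combination in either library was *Tnip3* with *Clec4b1* and no other defining gene, in 17.7% and 16.9%, and all 4 genes were found in 7.71% and 8.06%.

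Most *Tnip3*-set cells lay at the edge of the rule, since 61.3% in IgG and 62.0% in SPP1-nAb had exactly 2 of the 4 genes. Just outside it, 1288 and 2111 phagocytes met every other part of the rule and had 1 of the genes. The cells with 5 UMIs of *H2-Ab1* numbered 90 and 97, with *H2-Aa* at 2117 and 1600.2 CPM, and those with 4 UMIs, left out, numbered 68 and 103, with *H2-Aa* at 1897 and 1275 CPM. At the edge of the *Gpr34* set, cells with 2 of its 7 genes had *C1qa* at 1694 and 1752 CPM and those with 3, left out, at 1994 and 2075 CPM. *Cd226* and *Dcstamp* stood lower beyond that edge, at 18.3 and 11.9 CPM and 11.2 and 16.5 CPM, against 64.0 and 20.3 CPM and 46.2 and 25.3 CPM inside it.

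Because a UMI of a weakly expressed gene is found more easily in a deeper cell, the shares were repeated with each cell thinned to 3000 UMIs, which left out 194 and 105 *Tnip3*-set cells. The median depth was 4800.5 and 5907 UMIs in *Tnip3*-set cells and 3973 and 5231 UMIs in the other MHC-II-high phagocytes, the 2234 and 3413 cells that met the rest of the rule with 0 or 1 defining gene. At equal depth *Tnip3* was found in 70.9% and 65.8% of the *Tnip3*-set cells, in 16.9% and 21.1% of the other MHC-II-high phagocytes and in 71% and 78.3% of the *Cd209a* cells. In mesenchymal cells, taken as *Pdgfra*, *Dcn* and *Col1a1* positive barcodes without *Ptprc*, the share was 0.659% and 0.862% after thinning and 1.14% and 2.98% before, with a median of 5262 and 8098 UMIs. *Tnfsf9* was different in this respect, since it does not mark phagocytes alone. It had a UMI in 15.8% and 16.5% of the thinned mesenchymal cells against 45.6% and 38.8% of the *Tnip3*-set cells. The *Tnip3*-set cells and the other MHC-II-high phagocytes were formed at full depth by UMIs of the defining genes. Their shares at equal depth are thus tied to the selection.

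*Tnip3*-set cells made up 7.10% of the kept barcodes in IgG (exact interval 6.77 to 7.44%) and 11.7% in SPP1-nAb (11.3 to 12.1%), a difference of 4.64 percentage points. Of phagocytes they were 13.5% and 18.3%. The SPP1-nAb library was the deeper one. At 3000 UMIs per cell, with 7908 and 5952 shallower barcodes left out, the shares were 6.11% and 7.74%, a difference of 1.62 points. The order of the libraries turned among the MHC-II-high phagocytes that met the rest of the rule. There the share with at least 2 defining genes was 42.6% in IgG and 46.0% in SPP1-nAb at full depth, and 37.1% and 33.6% at equal depth. Such phagocytes were themselves 2548 of 15477 and 4336 of 18806 barcodes at equal depth. With 1 library a group, the antibody, the dissociation and the sort cannot be told apart in these shares.

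Neighbors were then taken among all phagocytes from 2000 variable genes without any of the genes of the rule. Of the 20 nearest neighbors of a *Tnip3*-set cell, 36.7% in IgG and 36.1% in SPP1-nAb were also *Tnip3*-set cells, whereas *Tnip3*-set cells were 13.5% and 18.3% of the phagocytes. Around other MHC-II-high phagocytes the share was 18.9% and 21.1%. It grew with the number of defining genes, from 15.6% and 17.1% around cells with none to 49.3% and 50.4% around cells with all 4. By genes outside the rule the cells thus lay nearer to each other than their share of phagocytes gives, and most of their neighbors were still other phagocytes. These shares are descriptions, since genes that vary with those of the rule stayed in.

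They did not form a cluster of their own. The phagocytes fell into 22 clusters, and *Tnip3*-set cells were found in 22 of them in IgG and 21 in SPP1-nAb. The densest was cluster 6, led by *Dcstamp*, *Cd226*, *Ear2*, *Retnla* and *Mmp12*, where they were 310 of 672 cells in IgG (46.1%) and 492 of 1273 in SPP1-nAb (38.6%). That cluster still held 18.7% and 16.9% of all *Tnip3*-set cells. A like part, 16.0% and 16.9%, lay in cluster 1, led by *Spp1* and *Fabp4*, and 17.4% and 12.1% in cluster 2, led by *Ccl4*, *Alox5* and *Tnf*. Cluster 3, led by interferon-induced genes and *Ly6c2*, held 12.3% and 10.5%. Cluster 5, led by *Acp5* and *Cd22*, held 7.29% and 14.3%, a larger part in SPP1-nAb than in IgG. That cluster was also larger among all phagocytes of SPP1-nAb, with 711 of 12332 in IgG and 1586 of 15892 in SPP1-nAb. In cluster 4, led by *Cd209g*, *Cd209f* and the resident macrophage gene *Lyve1*, *Tnip3*-set cells were rare, 14 of 1520 and 25 of 1274 cells.

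**Figure D2:**
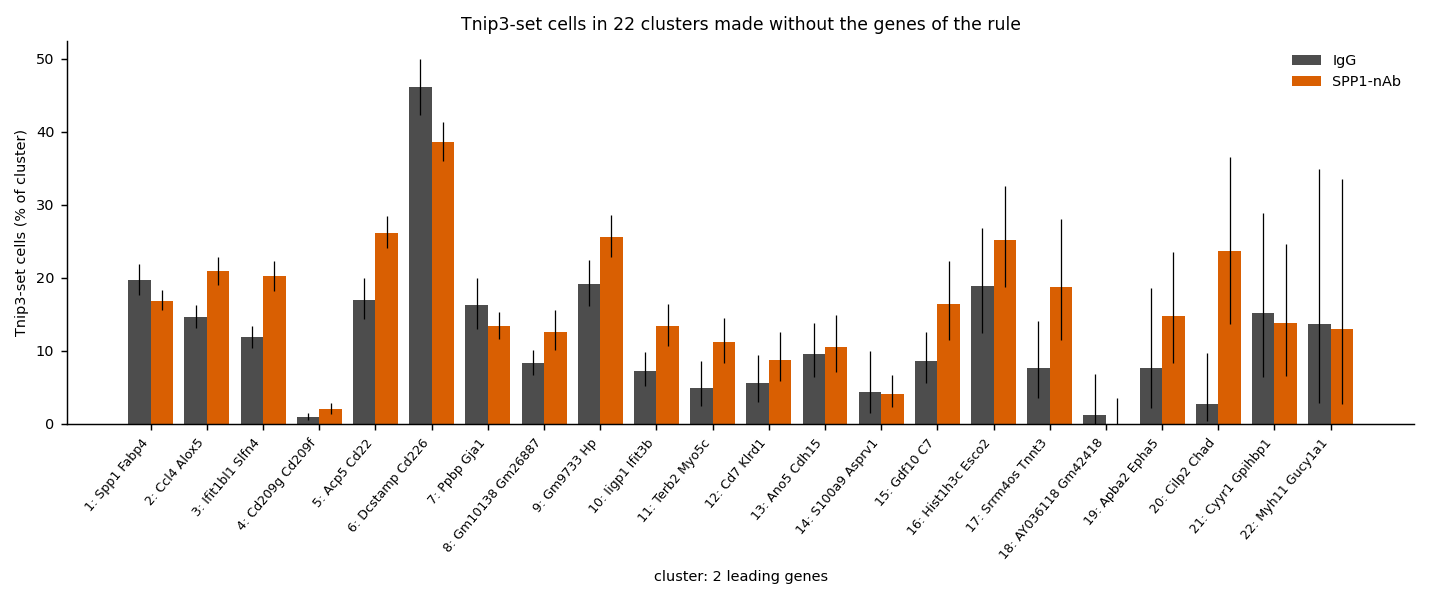
Share of *Tnip3*-set cells (% of the cells of a cluster, y axis from 0) in each of 22 phagocyte clusters made without the genes of the rule, labeled with 2 leading genes, for IgG (gray) and SPP1-nAb (orange), with exact 95% binomial intervals. The share is 46.1% and 38.6% in cluster 6 and 0.921% and 1.96% in cluster 4.

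In 9 clusters at least 2 markers of another cell class were raised, among them neutrophil, mesenchymal, muscle, Schwann, endothelial, mural and dendritic cell markers. They held 93 and 159 of the *Tnip3*-set cells (5.60% and 5.47%). Doublet scores were also higher in *Tnip3*-set cells, with 20.1% and 19.7% of them among the 10% of barcodes with the highest score, against 12.9% and 11.9% of the other MHC-II-high phagocytes. Without the high-scoring barcodes *Dcstamp*, described next, was higher by log2 3.48 and 3.37.

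The closest comparison was with the other MHC-II-high phagocytes of the same library. All differences here are between groups of cells formed by the rule, and they describe those cells without a test. Of 11030 genes with enough UMIs, 67 (0.607%) were at least 2-fold higher in the *Tnip3*-set cells of both libraries and 4 (0.0363%) at least 2-fold lower. By any size, 23.8% were higher in both libraries and 41.1% lower, and the median log2 ratio over all genes was -0.06 and -0.03 in IgG and SPP1-nAb. Few genes thus stood 2-fold apart in both libraries. The count of higher genes depended on depth, and was 8 when the rule was applied at 3000 UMIs per cell.

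*Dcstamp*, which encodes a transmembrane protein of macrophage and osteoclast fusion, was at 42.1 CPM (IgG) and 27.4 CPM (SPP1-nAb) in the *Tnip3*-set cells and at 4.89 CPM (IgG) and 2.95 CPM (SPP1-nAb) in the other MHC-II-high phagocytes, a log2 ratio of 3.11 (interval 2.67 to 3.58) in IgG and 3.21 (interval 2.81 to 3.64) in SPP1-nAb. *Cd226*, an adhesion receptor known from T and NK cells, was at 40.1 and 13.4 CPM against 3.95 and 1.74 CPM, log2 3.34 and 2.94. Both genes stood well above the comparison in either library, yet they were carried by a minority, with a UMI in 127 and 188 cells and in 138 and 112 cells. Neither was confined to them, since the *Cd209a* cells held *Dcstamp* at 21.5 and 50.2 CPM and *Cd226* at 60.8 and 45.2 CPM. At 3000 UMIs per cell the log2 ratio of *Dcstamp* was 1.48 and 0.72, and at 5000 UMIs it was 3.39 and 1.98. That of *Cd226* was 1.99 and 1.48 at 3000 UMIs and 3.07 and 3.11 at 5000 UMIs. With at least 3 defining genes required, *Dcstamp* was at log2 1.58 and 1.85 and *Cd226* at 1.43 and 1.97. With the clusters that held raised markers of another class, dendritic cells among them, left out, *Dcstamp* was higher by log2 3.41 and 3.22. *Ccl17*, a ligand of CCR4, ranked first by the smaller of its library ratios, log2 3.75 and 3.52, from 26.6 and 27.3 CPM against 1.98 and 2.37 CPM. It rested on 34 and 45 cells, and the 10 highest cells held 81.7% and 86.1% of its UMIs. The log2 ratio of *Ccl17* was 0.55 and -0.24 at 3000 UMIs per cell and 4.45 and 1.69 at 5000 UMIs, and with at least 3 defining genes it was 0.52 and 1.17. In the *Cd209a* cells *Ccl17* was at 215 and 376 CPM. *Mmp12*, macrophage elastase, was at 318 and 439.9 CPM against 104 and 113 CPM, and was found in 208 and 445 cells. Its log2 ratio of 1.61 and 1.96 was 1.95 and 0.41 at 3000 UMIs and 0.54 and 1.24 at 5000 UMIs.

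Other genes among the 15 highest ratios were low in level. The potassium channel gene *Kcnq1* (log2 2.56 and 2.86), *Upb1* (2.54 and 2.88), *Spink2* (2.37 and 2.89), *Cd200r3* (2.36 and 4.20), the epithelial transcription factor gene *Ehf* (2.16 and 2.45) and the lectin-like receptor gene *Klrb1a* (2.32 and 2.14) were at or below 10.7 CPM in the *Tnip3*-set cells of both libraries. The remaining 6, *Ube2c*, *Hmmr*, *Cenpf*, *Birc5*, *Nusap1* and *Pclaf*, encode proteins of DNA replication and mitosis. Of the list of 10 cell cycle genes 6 were at least 2-fold higher in both libraries, beside 0.607% of all genes, none was lower, and the median log2 ratio was 1.29 and 1.16. *Mki67* was at 43.4 and 44.8 CPM against 14.8 and 17.7 CPM, log2 1.56 and 1.34, and at 3000 UMIs per cell the ratio was 0.71 and 1.02, and at 5000 UMIs 0.85 and 0.86. The *Cd209a* cells, at 68.2 and 62.6 CPM, and the *Gpr34*-set cells, at 50.0 and 55.5 CPM, were higher than the *Tnip3*-set cells, and the other MHC-II-high phagocytes were the lowest of these 4 sets. Cluster 16, led by histone and mitosis genes, held 24 and 41 *Tnip3*-set cells.

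Genes of the NF-kB pathway were higher in the *Tnip3*-set cells than in the other MHC-II-high phagocytes by small ratios. The list held *Tnip3* and 19 further genes of NF-kB subunits, inhibitors and feedback regulators. Of the 19, 17 were higher in both libraries, beside 23.8% of all genes, and 0 lower in both, none reached 2-fold, and the median log2 ratio was 0.28 and 0.28 in IgG and SPP1-nAb. *Tnfaip3*, which encodes A20, was at 367 CPM (IgG) and 243 CPM (SPP1-nAb) against 234 and 169 CPM, log2 0.65 (interval 0.57 to 0.73) in IgG and 0.52 (interval 0.46 to 0.59) in SPP1-nAb. *Nfkbia*, the inhibitor IkB-alpha, was at 1858 and 1455 CPM against 1259.6 and 1070.2 CPM. *Nfkbiz*, an atypical nuclear member of that family, was at 559 and 354 CPM against 402 and 216 CPM, and *Traf1*, an adapter of TNF receptors, at 60.9 and 46.8 CPM against 32.6 and 24.6 CPM. *Rela* was nearly level, at 30.1 and 31.3 CPM against 30.7 and 29.2 CPM. None of these genes was used by the rule apart from *Tnip3*, yet genes that vary with those of the rule are tied to the selection. Against the *Cd209a* cells the list had 6 genes higher and 9 lower in both libraries, beside 42% and 32.5% of all genes, and a median log2 ratio of -0.06 and -0.13. Against the *Gpr34*-set cells 6 were higher and 8 lower, beside 29.1% and 54% of all genes.

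Among 18 cytokine genes, 14 were measured and *Il6* alone was at least 2-fold higher in both libraries, beside 0.607% of all genes. By any size 7 were higher and 4 lower, beside 23.8% and 41.1% of all genes, and the list's median log2 ratio was 0.21 and 0.08. *Il6*, a pro-inflammatory cytokine, was at 85.4 CPM (IgG) and 64.6 CPM (SPP1-nAb) in the *Tnip3*-set cells and at 25.5 CPM (IgG) and 19.4 CPM (SPP1-nAb) in the other MHC-II-high phagocytes, log2 1.75 (interval 1.54 to 1.96) in IgG and 1.74 (interval 1.57 to 1.91) in SPP1-nAb. It was found in 238 and 413 *Tnip3*-set cells. Mesenchymal cells carried it more often, with 29.9% and 39.8% positive at 3000 UMIs against 11.9% and 9.50% of the *Tnip3*-set cells and 4.28% and 3.77% of the other MHC-II-high phagocytes, and the part of RNA from such cells was not tested. In the *Cd209a* cells the share was 9% and 9.52%. *Il1b* was far more abundant, at 2476 CPM (IgG) and 2225 CPM (SPP1-nAb) against 1577 and 1539.5 CPM, log2 0.65 and 0.53. *Tnf* was at 300.3 and 164 CPM against 185 and 108 CPM. *Il12a*, *Il12b* and *Il23a* had few or no UMIs in any set of phagocytes.

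Of 18 measured chemokine genes, 7 were higher in both libraries and 5 lower in both, beside 23.8% and 41.1% of all genes, with *Ccl17* the only one past 2-fold. The neutrophil attractant *Cxcl1* was at 581 and 469 CPM against 275 and 244 CPM, log2 1.08 and 0.94, and *Cxcl2* at 9423 and 8406 CPM against 6175 and 6859.5 CPM. The monocyte attractant *Ccl8* was lower, at 314 and 391 CPM against 590.1 and 737 CPM, log2 -0.91 (interval -0.98 to -0.85) in IgG and -0.91 (interval -0.95 to -0.87) in SPP1-nAb. *Ccl12* was also lower, at 448 and 345 CPM against 788 and 490.2 CPM. *Ccl2* and *Ccl7*, also monocyte attractants, were at 1620.0 and 1271 CPM against 1913 and 1565 CPM and at 1365 and 1204 CPM against 1782 and 1654 CPM.

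Genes of antigen presentation were slightly higher still. *H2-Aa* was at 5318 CPM (IgG) and 5175 CPM (SPP1-nAb) against 4752 and 4454 CPM, and *H2-Eb1* at 4222 and 3996 CPM against 3533 and 3193 CPM. *Cd74*, the invariant chain, was at 12572 and 11304 CPM against 11651 and 10154 CPM, and *H2-DMb1*, a chain of the peptide editor H2-DM, at 355 and 372 CPM against 276 and 298 CPM. Of 11 measured genes of the list 9 were higher in both libraries, against 23.8% of all genes, none by 2-fold, and the median log2 ratio was 0.16 and 0.24. *Ciita*, the class II transactivator, differed little, at 54.9 and 41.1 CPM against 50.7 and 34.9 CPM. Of the costimulatory genes, *Cd86* was nearly level at 469 and 353 CPM against 496 and 346 CPM, and *Cd83* was at 566 and 432 CPM against 473 and 369.5 CPM. In 9 measured genes of that list 6 were higher and 2 lower in both libraries, beside 23.8% and 41.1% of all genes. The median log2 ratio was 0.17 and 0.09, with none past 2-fold, beside 0.607% of all genes higher and 0.0363% lower.

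The families of the other defining genes showed no common direction. *Tnfsf9* apart, 9 ligand and receptor genes of the TNF family were measured, of which 4 were higher and 5 lower in both libraries (all genes 23.8% and 41.1%), none by 2-fold. *Tnfrsf9*, the receptor of 4-1BBL, was at 1.81 and 0.894 CPM in the *Tnip3*-set cells. Among 17 measured C-type lectin and signaling partner genes, 7 were higher and 5 lower in both, next to the shares of all genes just given. The neighbor of *Clec4b1* in that cluster of genes, *Clec4e*, which encodes the receptor Mincle, was at 433 and 407 CPM against 269.6 and 269 CPM, *Clec4a2* at 544 and 485 CPM against 442 and 349.5 CPM and the lectin gene *Mgl2* at 335 and 289 CPM against 226 and 202 CPM. *Clec4n*, which encodes Dectin-2, was at 204 and 214 CPM against 241 and 234 CPM, in the other direction. Of the relatives of *Arl5c*, *Arl5a* was at 51.2 and 56.9 CPM against 46.4 and 53.5 CPM and *Arl5b* at 83.2 and 98.8 CPM against 65.3 and 80.2 CPM. The 8 measured ARF-like genes counted 2 higher and 5 lower in both libraries, with a median log2 ratio of -0.08 and -0.10.

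Genes of resident macrophages were lower in the *Tnip3*-set cells. Of 9 measured genes of the list 8 were lower in both libraries, beside 41.1% of all genes, and none higher in both, with a median log2 ratio of -1.12 and -0.49, and none was past 2-fold in both. *Folr2*, a folate receptor of resident macrophages, was at 59.3 CPM (IgG) and 51.8 CPM (SPP1-nAb) against 122 and 69.3 CPM. *Cd163*, the hemoglobin scavenger receptor, was at 40.2 and 34.6 CPM against 116 and 53.5 CPM, and *Selenop*, which encodes the carrier selenoprotein P, at 1137 and 1248 CPM against 2075 and 1749.9 CPM. *Lyve1* was at 6.78 and 4.68 CPM against 37.8 and 6.54 CPM, a difference that was far larger in IgG than in SPP1-nAb. In the *Gpr34*-set cells, the phagocytes with at least 3 of the 7 genes, *Lyve1* stood at 211 and 73.6 CPM.

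Genes shared by most macrophages were lower as well, by less. All but 1 of the 13 measured genes of that list were lower in both libraries (12 genes), where 41.1% of all genes were, with a median log2 ratio of -0.41 and -0.26. *Apoe*, apolipoprotein E, was at 4103 CPM (IgG) and 4719 CPM (SPP1-nAb) against 7157 and 7135 CPM, log2 -0.80 (interval -0.82 to -0.78) in IgG and -0.60 (interval -0.61 to -0.58) in SPP1-nAb. *Maf* was at 498 and 405 CPM against 856 and 536 CPM. *Cd14*, the lipopolysaccharide co-receptor, was the exception, at 1448 and 1533 CPM against 1208 and 1290.1 CPM. Of the lipid and repair genes, *Spp1* itself was at 404 CPM (IgG) and 541 CPM (SPP1-nAb) against 640.2 and 958 CPM. *Lpl*, lipoprotein lipase, ran the other way, at 948 and 725 CPM against 525 and 466 CPM. In the list of 12 genes 8 were lower and 3 higher in both libraries, and of all genes 41.1% and 23.8%.

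Monocyte genes were found on both sides. *Ccr2*, the receptor that brings monocytes into tissue, was at 978 CPM (IgG) and 752 CPM (SPP1-nAb) against 798 and 596 CPM, whereas the inflammatory monocyte gene *Ly6c2* was at 223 and 163 CPM against 394 and 208 CPM. *Plac8* was at 347 and 278 CPM against 549.7 and 308 CPM. Over the list of 13 genes 3 were higher and 6 lower in both libraries, close to the 23.8% and 41.1% of all genes, and the median log2 ratio, -0.40 and 0.15, differed in sign between them. Interferon-induced genes were lower, 9 of 11 in both libraries beside 41.1% of all genes, with *Isg15* at 463 and 348 CPM against 642 and 435 CPM. Genes induced by interferon gamma showed no common direction, with 2 higher and 4 lower of 10, again close to the shares of all genes.

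Of the dendritic cell list 8 of 12 measured genes were higher in both libraries than in the other MHC-II-high phagocytes, beside 23.8% of all genes, with a median log2 ratio of 0.60 and 0.58. The list holds *Dcstamp*, described above and its 1 gene past 2-fold. The integrin gene *Itgax* (CD11c) was at 60.1 CPM (IgG) and 63.0 CPM (SPP1-nAb) against 24.3 and 36.3 CPM and *Irf4* at 23.4 and 12.4 CPM against 12.5 and 6.17 CPM. *Klrd1* was at 9.15 and 4.52 CPM against 2.18 and 2.27 CPM. The defining dendritic cell genes *Zbtb46* and *Flt3*, at the values above, and *Kit*, at 0.678 and 0.631 CPM, were near 0 in these cells, and the part that dendritic cells with no *Cd209a* UMI had in these differences was not tested.

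The 10 genes with the lowest ratios were weakly expressed. They were *Dnase1l3*, *P3h2*, *Gm13919*, *Gm50020*, *Chp2*, *Ankrd1*, *Gm42670*, *Gm49417*, *E130102H24Rik* and *C9*, and the highest level of any of them in the *Tnip3*-set cells was 6.33 CPM, for *Chp2* in IgG. *Dnase1l3*, an endonuclease of macrophages and dendritic cells, was at 0.791 and 1.21 CPM against 3.22 and 3.22 CPM, and *P3h2* at 3.95 and 1.63 CPM against 10.3 and 4.17 CPM.

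The levels of several genes changed with each further defining gene, also on both sides of the threshold of the rule, and those of others did not. In the MHC-II-high phagocytes with 0, 1, 2, 3 and 4 of the genes, *Dcstamp* was at 3.14, 6.04, 37.5, 44.8 and 62.6 CPM in IgG and at 1.62, 3.70, 21.7, 30.0 and 56.8 CPM in SPP1-nAb. *Il6* was at 21.2, 28.3, 73.9, 97.9 and 117 CPM in IgG and *Apoe* at 7951, 6634, 4618, 3582 and 2591 CPM. Between 1 and 2 genes *Cd226* went from 5.52 to 38.1 CPM in IgG and from 2.47 to 9.79 CPM in SPP1-nAb. In IgG *Ccl17* had no such order, at 2.09, 1.90, 32.3, 22.4 and 3.68 CPM. In SPP1-nAb it was at 0.442, 3.45, 27.6, 25.9 and 29.8 CPM, so that the low level with 4 genes was seen in IgG only. *C1qa* had no such order in either library, at 1729, 1512, 1223, 1136 and 1297 CPM in IgG and at 1424, 1436, 1243, 1296 and 1154 CPM in SPP1-nAb. *Il1b* was at 2965 CPM with 3 genes in IgG and at 2741 CPM with 4. In SPP1-nAb *Il1b* rose with each gene, at 1215, 1721, 1942, 2626 and 2738 CPM. *Spp1* went from 751 to 172 CPM in IgG and from 1131 to 359 CPM in SPP1-nAb. The median depth moved with the number of genes, from 3719 to 6053 UMIs in IgG and from 4982 to 6382 UMIs in SPP1-nAb, and its part in the levels was not tested.

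**Figure D3:**
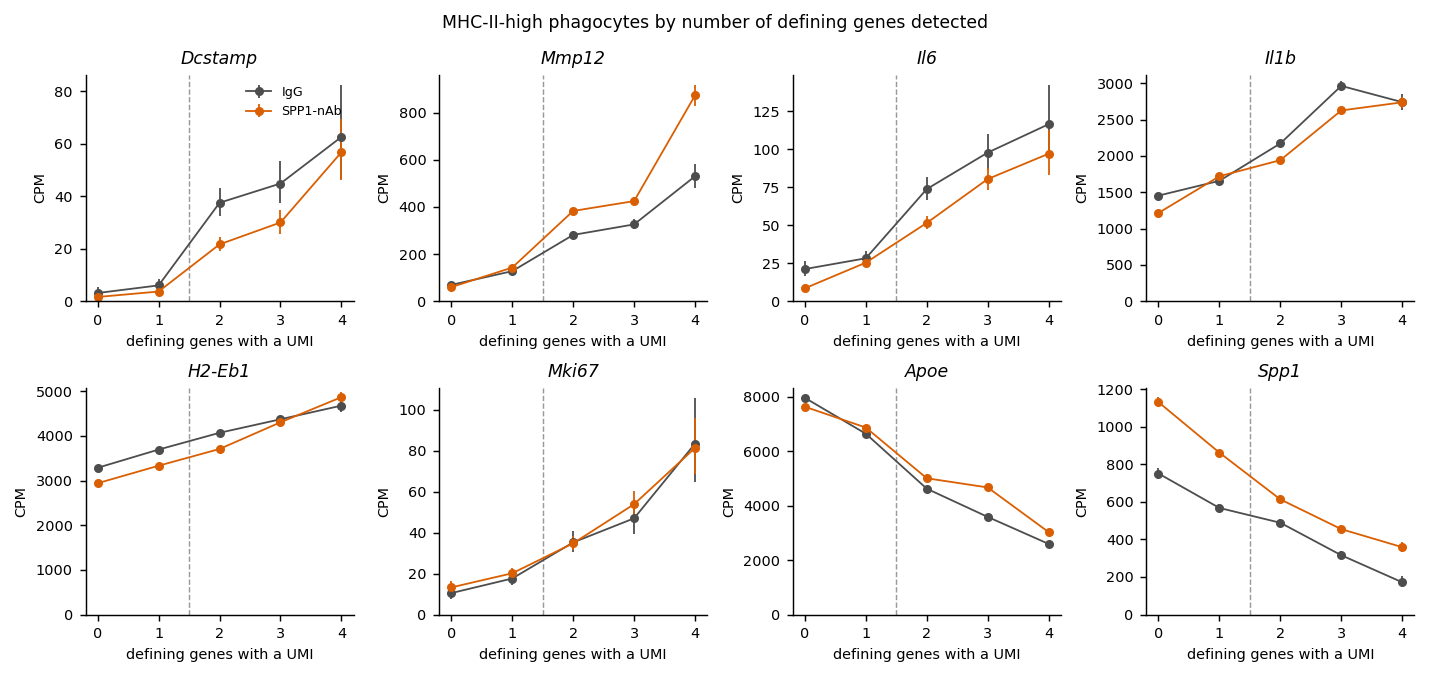
Summed level (CPM, y axes from 0) of 8 genes in MHC-II-high phagocytes with 0 to 4 of the defining genes detected, for IgG (gray) and SPP1-nAb (orange), with 95% Poisson intervals. Cells right of the dashed line are the *Tnip3*-set cells. *Dcstamp* goes from 3.14 to 62.6 CPM in IgG, and *Apoe* from 7951 to 2591 CPM.

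Against the *Cd209a* cells, 447 of 10089 genes (4.43%) were at least 2-fold higher in the *Tnip3*-set cells of both libraries and 305 (3.02%) lower. Of 13 measured macrophage genes 11 were higher, and of 12 lipid and repair genes 10, whereas 8 of 12 measured dendritic cell genes were lower. *Mmp3* and *Saa3* were among the highest ratios, at 3.05 and 6.57 CPM against 0 and 0.281 CPM and at 6.55 and 6.52 CPM against 0 and 0.561 CPM, together with *P2ry2*, *Gm32089* and *Dppa3*. At the other end *Cd209e* was at 0.565 and 0.999 CPM against 50.0 and 122 CPM and *Cd209d* at 2.37 and 1.68 CPM against 178 and 194 CPM. *Cd7* was at 0.339 and 1.16 CPM against 91.7 and 92.3 CPM. *Gm16553* had no UMI in *Tnip3*-set cells, which at 3 counts per library allows up to 0.339 and 0.158 CPM, and *Aqp3* had a UMI in 0 and 1 of them. *Cd209a* was a gene of the rule for both sets, so its relatives were tied to the selection.

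The *Gpr34*-set cells and the MHC-II-low phagocytes, which had fewer than 5 UMIs of *H2-Ab1*, were compared in the same way. Against the first, 215 of 11467 genes (1.87%) were at least 2-fold higher and 606 (5.28%) lower, and against the second 83 of 12456 (0.666%) higher and 444 (3.56%) lower. Of 10 resident macrophage genes 9 and 8 were lower in these comparisons. The rule limits the *Gpr34* set in *Tnip3*-set cells, whereas the *Gpr34*-set cells needed at least 3 of its genes and the MHC-II-low phagocytes had no such limit, so that these lower genes are tied to the selection. *Pla2g2d*, *Cd209g*, *Cd209f* and *Vsig4* were among the lowest ratios in both, joined by *Lyve1* and *Atp1b1*, with *Vsig4*, a complement receptor gene, at 0.113 and 0.158 CPM in the *Tnip3*-set cells, 7.53 and 3.43 CPM in the *Gpr34*-set cells and 6.54 and 1.57 CPM in the MHC-II-low phagocytes. Of the monocyte list 8 of 13 genes were higher than in the *Gpr34*-set cells, *Ly6c2* at 45.2 and 38.2 CPM there. *Cebpe* and *Slc36a3os*, at 4.52 and 3.94 CPM and 9.72 and 8.04 CPM in the *Tnip3*-set cells, were among the highest ratios over the *Gpr34*-set cells, at 0.389 and 0.445 CPM and 0.974 and 1.02 CPM. Over the MHC-II-low phagocytes 8 of 11 presentation genes were higher, which follows the rule's use of *H2-Ab1*. The 2 comparison sets overlap, since a cell can be in both.

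Within the *Tnip3*-set cells the SPP1-nAb library was compared with the IgG library. The cells were not spread alike over the clusters, with 7.29% of them in cluster 5 in IgG and 14.3% in SPP1-nAb. Of all phagocytes, 711 of 12332 in IgG and 1586 of 15892 in SPP1-nAb lay in that cluster. The part of the spread of *Tnip3*-set cells over the clusters in the differences below was not tested. Of 9558 genes, 227 (2.37%) were at least 1.5-fold higher in SPP1-nAb with a counting interval clear of 1, and 384 (4.02%) were lower. The median log2 ratio over all genes was -0.00336. Of the 12 lipid and repair genes 3 were higher and none lower, *Atp6v0d2* and *Gpnmb* among them. The chitinase-like gene *Chil3* was at 84.5 CPM (IgG) and 277 CPM (SPP1-nAb), a log2 ratio of 1.72 (interval 1.60 to 1.83), and the proton pump subunit gene *Atp6v0d2* at 37.4 and 98.5 CPM, log2 1.40 (interval 1.23 to 1.57). *Ccl24*, an eosinophil attractant, was at 286 and 615 CPM, log2 1.11, and *Gpnmb* at 87.4 and 146 CPM, log2 0.74. *Spp1* itself was at 404 and 541 CPM, log2 0.42 (interval 0.37 to 0.48), and 0.27 at 3000 UMIs and -0.33 at 5000 UMIs per cell, so that its direction differed between depths.

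*Chil3* and *Ccl24* were higher in SPP1-nAb in the other phagocytes too. In the other MHC-II-high phagocytes the log2 ratio of SPP1-nAb over IgG was 1.91 for *Chil3* and 1.58 for *Ccl24*, and in the MHC-II-low phagocytes 1.47 and 1.28. The genes past 1.5-fold in the *Tnip3*-set cells were compared between the libraries in the other sets as well. The 384 lower genes had a median log2 ratio of -0.77 in the *Tnip3*-set cells, where they were chosen, -0.83 in the other MHC-II-high phagocytes and -0.63 in the MHC-II-low phagocytes. For the 227 higher genes the medians were 0.80, 0.46 and 0.36. These sets come from the same 2 libraries. The difference between the sets was not tested.

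Immediate early genes were lower in SPP1-nAb. Of 12 genes known to respond to tissue dissociation 6 were at least 1.5-fold lower, beside 4.02% of all genes, and none higher, with a median log2 ratio of -0.60. *Fos* was at 1893 CPM (IgG) and 1007 CPM (SPP1-nAb), log2 -0.91 (interval -0.94 to -0.88), *Jun* at 425 and 222 CPM and *Egr1* at 347 and 174 CPM. The cytokine gene *Tnf* was at 300.3 and 164 CPM, log2 -0.88 (interval -0.95 to -0.80). The log2 ratio of *Tnf* was smaller at equal depth, -0.50 at 3000 UMIs, short of 1.5-fold, and -0.60 at 5000 UMIs. In all kept barcodes it was -0.25. *Tnfaip3* was at 367 and 243 CPM and *Nfkbiz* at 559 and 354 CPM. Of the NF-kB list these 2 of 19 genes were lower by this rule, beside 4.02% of all genes, and none higher. The list's median log2 ratio was -0.02, while its genes summed to 5397 CPM in the IgG library against 4633 CPM. The dissociation list summed to 8369 and 5921 CPM in the *Tnip3*-set cells, and it was also lower in SPP1-nAb in the other MHC-II-high phagocytes, at 9829 and 6380.5 CPM, and in the MHC-II-low phagocytes, at 10026 and 7077 CPM. The part of dissociation in the lower genes was not tested. Of the genes of the rule, *Tnip3* was at 798 and 599 CPM, log2 -0.41, *Tnfsf9* at 319 and 232 CPM, log2 -0.46, and *Arl5c* at 151 and 153 CPM, log2 0.02. Each cell had been chosen for them, at a greater depth in SPP1-nAb.

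The 8 genes with the highest ratios of SPP1-nAb over IgG were *Thbs4*, *Slc39a12*, *Lox*, *Cthrc1*, *Cc2d2b*, *S100a8*, *Bgn* and *Serpina3g*. *Thbs4*, *Lox*, *Cthrc1* and *Bgn* encode extracellular matrix proteins of tendon and fibroblasts, and *S100a8* a neutrophil calgranulin. *Thbs4* was at 9.38 and 72.9 CPM, log2 2.96, in 37 and 112 cells, and the 10 highest cells held 67.5% and 77.3% of its UMIs. Its ratio was -0.19 in the other MHC-II-high phagocytes and -0.14 in all kept barcodes. *S100a8* was at 24.6 and 87.6 CPM, with 87.6% and 81.6% of its UMIs in 10 cells. These transcripts thus sat in few cells. *Slc39a12*, a zinc transporter gene, was spread over 17 and 169 cells, at 2.26 and 15.4 CPM, and its ratio of 2.76 was 2.48 in the other MHC-II-high phagocytes.

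The 8 genes with the lowest ratios were *Gpc3*, *Efcc1*, *Peak1os*, *G0s2*, *Rasgrp3*, *Enpp2*, *Cd226* and *Col15a1*. *Cd226* had been among the highest ratios over the other MHC-II-high phagocytes, though its level was lower than in the *Cd209a* cells. It was at 40.1 and 13.4 CPM, log2 -1.59 (interval -1.82 to -1.35), and was found in 138 and 112 cells. *Dcstamp* was at 42.1 and 27.4 CPM, log2 -0.62 (interval -0.82 to -0.43). Both were also lower in SPP1-nAb in the other MHC-II-high phagocytes, by log2 -1.18 and -0.73, at levels near 0. *Rasgrp3*, a Ras activator gene, was at 10.1 and 2.94 CPM, log2 -1.77, against -2.25 in the other MHC-II-high phagocytes. *Gpc3*, *Enpp2* and *Col15a1* are genes of mesenchymal cells, and *Gpc3* was at 11.1 and 1.74 CPM in 24 and 23 cells. The 10 highest cells held 83.7% and 60.6% of the UMIs of *Gpc3* and 79.7% and 70% of those of *Enpp2*. For *Col15a1* this part was 81.9% and 39.7%, and for *G0s2* 93.5% and 65.5%. In all kept barcodes the log2 ratio was -2.36 for *Gpc3*, -2.05 for *Enpp2*, -1.66 for *Col15a1* and -0.29 for *G0s2*.

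**Figure D4:**
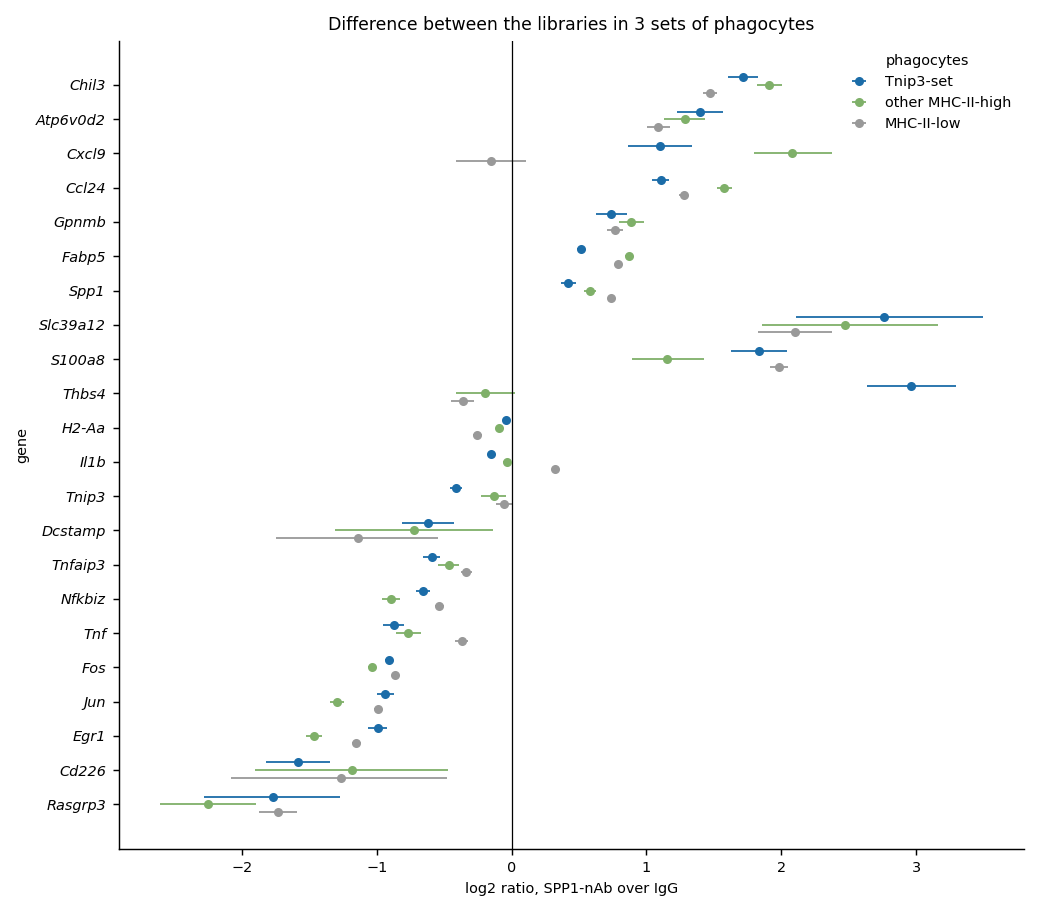
Log2 ratio of the summed level in SPP1-nAb over IgG (x axis) for 22 genes in *Tnip3*-set cells (blue), other MHC-II-high phagocytes (green) and MHC-II-low phagocytes (gray), with 95% counting intervals and a line at 0. *Chil3* lies at 1.72, 1.91 and 1.47, and *Thbs4* at 2.96, -0.19 and -0.36.

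Markers of other cell types were summed over their whole lists. Mesenchymal markers (8 genes, led by *Dcn*) came to 618 and 692 CPM in the *Tnip3*-set cells of IgG and SPP1-nAb and to 909 and 366 CPM in the other MHC-II-high phagocytes. Neutrophil markers (6 genes, led by *S100a8*) came to 96.0 and 206 CPM against 80.8 and 123 CPM, and muscle markers (6 genes, led by *Tnnt3*) to 63.9 and 31.4 CPM against 163 and 32.4 CPM. B and plasma cell markers (7 genes, led by *Ighm*) came to 76.5 and 68.9 CPM, T and NK cell markers (11 genes, led by *Cd4*) to 8.13 and 7.73 CPM, endothelial markers (6 genes, led by *Pecam1*) to 30.5 and 26.5 CPM and Schwann cell markers (5 genes, led by *Cdh19*) to 10.8 and 11.3 CPM. Mast cell and basophil markers (5 genes, led by *Cpa3*) were at 0 in IgG and at 0.0526 CPM in SPP1-nAb. *Cd3e*, *Cd8a*, *Jchain*, *Mcpt4*, *Mcpt8*, *Ms4a2* and *Fcer1a* had no UMI in any *Tnip3*-set cell. The neutrophil list was higher in SPP1-nAb, and without the clusters that held raised markers of another class *S100a8* had a log2 ratio of 1.37, against 1.83 with them. At 3000 UMIs per cell its direction turned, to -0.91, and at 5000 UMIs the ratio was 1.23. Genes of the dissociation list were lower than in the other MHC-II-high phagocytes, 10 of 12 in both libraries beside 41.1% of all genes, with a median log2 ratio of -0.22 and -0.11.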

How the data were processed

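Cells of injured mouse hind limb muscle at 7 dpi were measured by 10x Genomics scRNA-Seq in 1 IgG and 1 SPP1-nAb library. For each library the authors deposited a filtered CellRanger matrix of raw UMI counts, without normalization. The submitters' processing notes name Cell Ranger 8.0.0 and GRCm39, and the file headers name version 9.0.1. The ambient RNA removal, doublet removal and integration that the paper's methods describe came after these counts and were not applied here. The files list 32287 features, of which 31674 Ensembl identifiers are in GENCODE M39, the source of gene coordinates.

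The *Tnip3*-set cells, the comparison sets and the gene lists were chosen with earlier results of these data known. Barcodes with more than 200 genes and under 10% mitochondrial UMIs were kept. *Cd209a* cells had at least 2 UMIs of *Cd209a*, at least 5 of *H2-Ab1* and none of *Xcr1*, *Ccr7* and *Siglech*. UMIs were summed per set and library and divided by the set's total. Ratios carry exact binomial intervals, levels exact Poisson and shares exact Clopper-Pearson intervals, all at 95%. Mitochondrial, ribosomal, hemoglobin, immunoglobulin, sex and rule genes were left out of the counts of genes. A gene was compared when it had at least 100 UMIs over both libraries in the sets compared and a UMI in at least 20 *Tnip3*-set cells (comparison cells for lower genes). Between sets, 2-fold in both libraries was counted, and between libraries 1.5-fold with an interval clear of 1. Named genes were the 15 highest and 10 lowest by the smaller of the library ratios against the other MHC-II-high phagocytes, the 5 highest and 5 lowest against each other set, the 8 highest and 8 lowest between libraries, and genes of the lists. *Clec6a*, *Clec7a* and *Mx1* were not analysed here.

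Neighbors and Leiden clusters (resolution 1) used phagocytes of both libraries, counts scaled to 10000 and log-transformed, 2000 variable genes without the rule genes scaled per library, 30 principal components and 20 neighbors. Each barcode got a doublet score, the part of its 20 neighbors that were sums of barcode pairs drawn at random (2 such pairs drawn per barcode). They were kept, and removed in an alternative. Steps were tested on simulated data. Python 3.11.15, numpy 2.4.6, scipy 1.17.1, scikit-learn 1.9.0 and leidenalg 0.10.2 were used. Alternatives changed the filters, the parts of the rule, the depth and the averaging.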

Additional observations from a re-analysis of the deposited data

Results flagged for a closer look

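For 6 genes the *Tnip3*-set cells lay on opposite sides of the other MHC-II-high phagocytes in the 2 libraries. The log2 ratio in IgG and SPP1-nAb was -0.78 and 1.11 for *Dcn*, -0.98 and 0.66 for *Col1a1*, -0.87 and 1.17 for *Lum*, -0.92 and 1.18 for *Tnmd*, -1.64 and 1.51 for *Thbs4* and -0.91 and 1.10 for *Bgn*. All 6 are genes of fibroblasts or tenocytes. The difference between the libraries was not tested, since each is 1 sample. *Dcn* was found in 196 and 248 *Tnip3*-set cells, and the 10 highest cells held 63.7% and 41.0% of its UMIs. Cluster 20, led by *Cilp2*, *Chad* and *Fmod* and with *Tnmd* and *Thbs4* among its leading genes, held 2 *Tnip3*-set cells of 72 cells in IgG and 14 of 59 in SPP1-nAb.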

How the results depend on the processing

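The share of *Tnip3*-set cells in IgG and SPP1-nAb, 7.10% and 11.7% of kept barcodes, was 7.26% and 11.9% with more than 500 genes, 7.41% and 12.2% under 5% mitochondrial UMIs, 6.30% and 10.5% without the top 10% of doublet scores, 5.62% and 9.62% with at least 10 UMIs of *H2-Ab1* and 7.77% and 12.7% with at least 3. It was 2.75% and 4.46% with at least 3 defining genes, 9.61% and 14.2% without the *Gpr34* set, 8.55% and 13.4% without the dendritic cell genes, and 6.11% and 7.74% and 9.24% and 12.6% at 3000 and 5000 UMIs. The share was higher in SPP1-nAb under each of these settings. The 67 genes at least 2-fold higher than in the other MHC-II-high phagocytes became 34 with at least 3 defining genes, 105 without the dendritic cell genes, 8 and 29 at 3000 and 5000 UMIs, where fewer UMIs enter and cells change sets, and 40 with the mean of per-cell CPM. The 4 lower genes became 15 without high doublet scores, 7 with at least 3 UMIs of *H2-Ab1*, 23 with at least 3 defining genes, 7 without the *Gpr34* set, 9 without the dendritic cell genes, 17 and 7 at 3000 and 5000 UMIs and 13 with per-cell means. Between the libraries the 384 lower genes became 242, 187 and 234 with at least 3 defining genes and at 3000 and 5000 UMIs, and 538 and 440 without the *Gpr34* set and without the dendritic cell genes. The 227 higher genes ranged from 152 to 259. With neighbors taken among MHC-II-high phagocytes only, 56.6% and 55.7% of the neighbors were *Tnip3*-set cells, where these made up 42.6% and 46.0% of the cells. Of 403 values of single genes under the alternatives, 4 turned. At 3000 UMIs *Ccl17* turned to log2 -0.24 in SPP1-nAb, and between the libraries *S100a8* turned to -0.91 and *Dcn* from -0.36 to 0.24. *Spp1* turned to -0.33 at 5000 UMIs, and the cause was not tested. After the data had been seen, clusters with markers of another class were left out, which gave 7.07% and 11.8%, 75 and 11 genes against the other MHC-II-high phagocytes and 193 and 324 between the libraries, and likewise barcodes present in both libraries, which gave 7.09% and 11.8%. No paired analysis was possible because each group is 1 library and the labels give no replicate numbers. Depth limits the rule itself, since a UMI of a defining gene is missed more often in shallow cells, and weak genes were compared on few UMIs.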

Other observations

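Receptors of SPP1 were present in the *Tnip3*-set cells at levels close to those of the other MHC-II-high phagocytes. *Cd44*, the hyaluronan and osteopontin receptor, was at 919 CPM (IgG) and 1015 CPM (SPP1-nAb) against 821 and 986 CPM, and the integrin gene *Itgb1* at 348 and 319 CPM against 322 and 299 CPM. *Itga9* was lower, at 26.3 and 25.9 CPM against 39.8 and 40.4 CPM. Of 8 measured genes of the list 5 were higher and 3 lower in both libraries by any size, beside 23.8% and 41.1% of all genes. None was past 2-fold, beside 0.607% of all genes higher and 0.0363% lower. Between SPP1-nAb and IgG none was past 1.5-fold, beside 2.37% of all genes higher and 4.02% lower. The counts past these folds were thus close to the shares of all genes. By any size, in contrast, the 5 of 8 higher genes stood above the 23.8% of all genes.

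Sensors of microbial products followed no common direction. *Nlrp3*, the inflammasome sensor, was at 236 and 256 CPM against 159.6 and 189 CPM and *Tlr2* at 148 and 164 CPM against 131 and 135 CPM, whereas *Tlr7* was at 60.6 and 54.9 CPM against 82.6 and 56.1 CPM. Of 14 measured genes of that list 7 were higher and 6 lower in both libraries, beside 23.8% and 41.1% of all genes. Among the chemokine receptors there were 2 higher and 5 lower of 8. *Ccrl2*, a non-signaling receptor that binds chemerin, was at 372 and 372 CPM against 250.1 and 263 CPM. *Ear2* and *Retnla*, which lead cluster 6 with *Dcstamp*, were found in 326 and 842 and in 302 and 723 *Tnip3*-set cells of IgG and SPP1-nAb.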
